A study of Mus musculus with 9 samples.

Results

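The neuregulin and EGF-family system described here comprised 4 ligand genes, Nrg1, Nrg4, Hbegf and Btc, and the 4 ErbB receptor genes, Egfr, Erbb2, Erbb3 and Erbb4. They were chosen by symbol, and each of these 8 genes had a single entry among the 16698 genes of the deposited table. The left ventricle of ICR/CD1 mice, an outbred strain, was profiled by mRNA sequencing at postnatal day 14, in 9 libraries. In transverse aortic constriction (TAC) the aortic arch is narrowed, so that the ventricle ejects against a higher pressure. The first group of 3 libraries is from mice operated at day 1 (day-1 TAC), the next 3 are from mice operated at day 7 (day-7 TAC), and 3 sham libraries serve as controls. The labels do not date the sham surgery. TAC groups therefore differ both in the age at surgery and in the time under load, and these cannot be told apart. The study set a regenerative stage at day 1 against a stage at day 7 at which the heart no longer regenerates.

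ErbB receptors are receptor tyrosine kinases that signal as pairs. EGFR binds EGF-like ligands, ErbB4 binds neuregulins and several EGF-like ligands and has an active kinase, ErbB3 binds neuregulins but has a very weak kinase, and ErbB2 has no known ligand and serves as the preferred partner of the others. In the heart, neuregulin-1 is made mainly by endocardial and microvascular endothelial cells and acts on ErbB2 and ErbB4 of cardiomyocytes, a route needed for trabeculation of the embryonic ventricle and linked to cardiomyocyte growth, survival and proliferation around birth. Heparin-binding EGF-like growth factor (Hbegf) and betacellulin (Btc) bind both EGFR and ErbB4 and are released from the cell surface by ADAM proteases.

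The promoter windows of the receptor genes Erbb4 and Erbb2 and of the ligand gene Btc are shown because these genes gave the contrasts followed below: a receptor that differed among all groups, its partner receptor with a smaller range, and a ligand that rose with TAC. Each window is the 250 bases before the annotated gene start in RefSeq on GRCm38.p6, printed 5′ to 3′ on the gene's own strand, with matches to a searched motif in capitals. The windows lie at chr1:69108060-69108309 on the minus strand (Erbb4), chr11:98412234-98412483 on the plus strand (Erbb2) and chr5:91402995-91403244 on the minus strand (Btc).
Erbb4: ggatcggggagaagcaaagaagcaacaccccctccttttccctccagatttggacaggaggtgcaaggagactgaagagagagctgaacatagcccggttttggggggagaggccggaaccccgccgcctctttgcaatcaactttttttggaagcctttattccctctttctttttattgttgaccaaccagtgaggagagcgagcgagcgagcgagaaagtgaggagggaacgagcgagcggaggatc
Erbb2: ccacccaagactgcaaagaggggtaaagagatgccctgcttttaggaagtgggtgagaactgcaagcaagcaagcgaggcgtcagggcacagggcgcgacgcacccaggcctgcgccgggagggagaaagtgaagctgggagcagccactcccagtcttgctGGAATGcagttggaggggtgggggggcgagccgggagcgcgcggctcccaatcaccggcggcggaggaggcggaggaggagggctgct
Btc: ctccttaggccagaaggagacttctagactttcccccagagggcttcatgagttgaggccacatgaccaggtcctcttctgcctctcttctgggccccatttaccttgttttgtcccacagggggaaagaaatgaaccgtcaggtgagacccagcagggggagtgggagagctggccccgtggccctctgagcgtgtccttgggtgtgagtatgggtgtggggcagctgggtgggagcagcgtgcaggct

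On both strands 8 motifs were searched. Over all 32841 promoter windows of the same length, the share with a match was 32.749% for the GC box (GGGCGG) and 12.64% for the element of TEAD factors, also called M-CAT (GGAATG). It was 6.023% for the E-box (CACGTG) and 1.468% for the CArG box, the element of serum response factor. For AP-1, the element bound by Fos and Jun proteins (TGANTCA), the share was 6.751%, and for CRE, the cyclic AMP response element (TGACGTCA), 1.547%. The core promoter element TATAAA was found in 12.369% of windows, and AGATAA, bound by zinc-finger factors of the GATA family, in 9.991%. A CArG box can share bases with TATAAA, and the other motifs do not contain each other. The Erbb4 and Btc windows held no match to any of the 8. The Erbb2 window held 1 match, the TEAD element, 88 to 83 bases before the start. Windows were also found for Egfr, with a GC box 9 to 4 bases before the start, and for Nrg4, with the AGATAA match 244 to 239 bases before it. The Nrg4 window, chr9:55283626-55283875, lies inside the span of Nrg4 given below, so its RefSeq start is not the start of that span. The end of the Erbb2 window also lies inside the Erbb2 span. GC content was 54% for Erbb4, 59.6% for Btc and 66% for Erbb2, against a median of 52.4% over all windows. A match is a description of the letters and not a site of binding.

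Depth was 18538900 to 26529531 recovered reads per library. Day-1 TAC replicate 3 stood apart in the sex-linked genes, with 10532 reads of Xist against at most 40 elsewhere and 18 reads of the Y-linked gene Ddx3y against 3312 to 4706 elsewhere. Values are deposited log2 values. Each library's value is given in the order replicate 1, 2, 3, an SD is over the 3 libraries of a group, and differences are log2 fold changes with their standard error (SE) from limma, with Benjamini-Hochberg adjusted p-values over 13712 tested genes and a call at an adjusted p under 0.05. All 8 genes were above 0 on the log2 scale in at least 3 libraries and entered the test. Both comparisons with sham use the same sham libraries.

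The ligands moved in opposite directions. Hbegf and Btc rose with TAC at either age, Nrg1 fell after day-7 TAC, and Nrg4 was not called in any comparison. On the receptor side Erbb4 and Erbb3 fell with TAC at either age, Erbb2 fell slightly after day-1 TAC, and Egfr was lower after day-1 TAC than after day-7 TAC. Most fits that left out 1 library lost the day-1 TAC calls of Erbb3 (8 of 9) and Erbb2 (7 of 9) and the Egfr call (6 of 9). Against sham, 2 of 8 members were called higher and 3 lower after day-1 TAC, while 34.8% of all tested genes were called in either direction (14.3% higher and 20.5% lower). After day-7 TAC the members again gave 2 higher and 3 lower against sham, where 28.9% of all tested genes were called (13.8% higher and 15.1% lower). Between day-1 and day-7 TAC no member was called higher (Nrg1 was higher at an unadjusted p under 0.05, which 33.2% of all tested genes reached in either direction) and 2 were called lower by limma, against 16.7% of all tested genes called (6.42% higher and 10.3% lower). Since so many genes differed, a call alone did not set these genes apart, and the sizes are given below. The median log2 fold change of the 8 members was -0.26, -0.15 and -0.13 in these comparisons, beside -0.04, -0.01 and -0.03 over all tested genes.

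**Figure D1:**
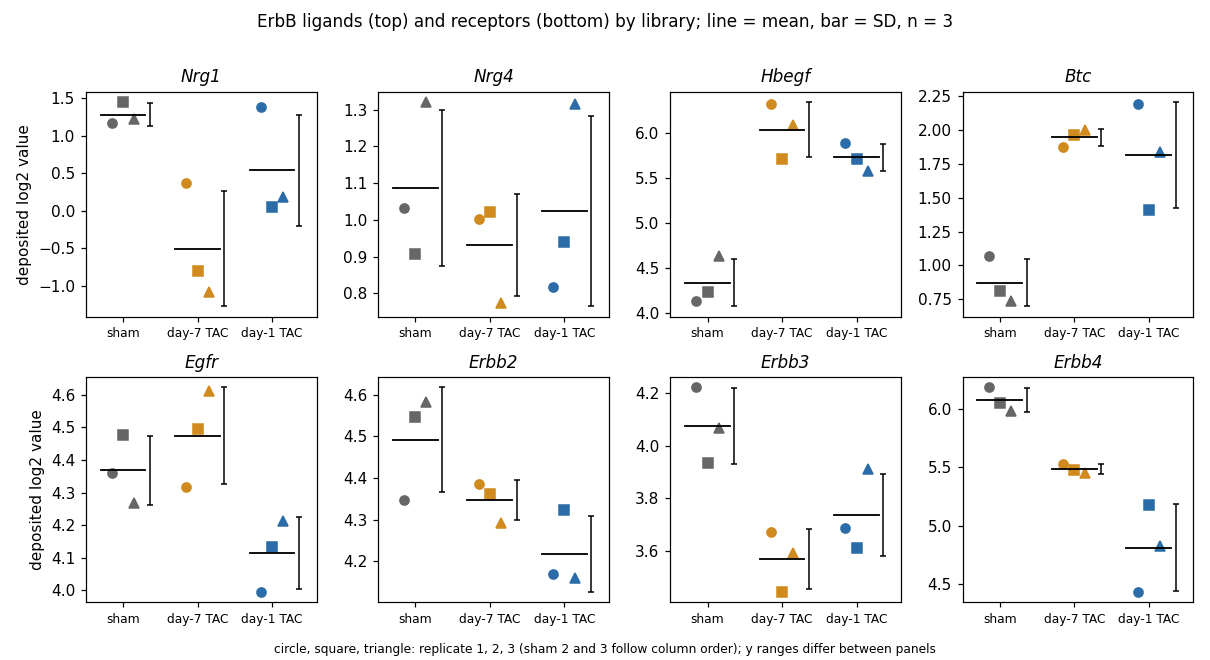
Deposited log2 value (vertical axis) of each ligand gene (top) and receptor gene (bottom) in the 9 libraries; points are libraries, lines are group means and bars are SD (n = 3). Hbegf and Btc lie higher in every TAC library than in every sham library, and Erbb4 steps down from sham to day-7 TAC to day-1 TAC.

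Hbegf encodes a membrane-anchored growth factor that binds EGFR and ErbB4. Its log2 values were 4.14, 4.24 and 4.64 in sham, 6.32, 5.71 and 6.09 after day-7 TAC and 5.89, 5.72 and 5.59 after day-1 TAC. Every TAC library lay above every sham library, and the TAC groups overlapped. Hbegf was 3.25-fold higher after day-7 TAC than in sham (log2 fold change 1.70, SE 0.17, limma adjusted p = 0.000178), and 2.63-fold higher after day-1 TAC (1.39, SE 0.17, adjusted p = 0.000345). Between day-1 and day-7 TAC the difference was -0.31 (95% interval -0.68 to 0.06, adjusted p = 0.225). It was -0.17 without day-7 TAC replicate 1 (adjusted p = 0.556) and -0.47 without day-7 TAC replicate 2 (adjusted p = 0.0855).

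Btc encodes betacellulin, another ligand shared by EGFR and ErbB4. Btc stood at log2 values of 1.07, 0.81 and 0.74 in sham, 1.88, 1.96 and 2.0 after day-7 TAC and 2.19, 1.41 and 1.84 after day-1 TAC. These rest on few reads, 32 to 45 per sham library, 75 to 88 after day-7 TAC and 54 to 96 after day-1 TAC, but no TAC library overlapped sham. Btc was 2.10-fold higher after day-7 TAC (1.07, SE 0.21, limma adjusted p = 0.00488) and 1.92-fold higher after day-1 TAC (0.94, SE 0.21, adjusted p = 0.00744). Day-1 and day-7 TAC differed by -0.13 (95% interval -0.60 to 0.34, adjusted p = 0.706). Both Hbegf and Btc kept their calls against sham when any 1 of the 9 libraries was left out.

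Nrg1 encodes neuregulin-1, the ligand of ErbB3 and ErbB4 that the endothelium presents to cardiomyocytes. Its log2 values were 1.17, 1.45 and 1.23 in sham, 0.37, -0.80 and -1.08 after day-7 TAC, and 1.39, 0.05 and 0.19 after day-1 TAC. In reads these were 45, 70 and 45 in sham, 31, 11 and 10 after day-7 TAC, and 55, 21 and 22 after day-1 TAC, and the exact Poisson 95% interval of 10 reads, 4.795 to 18.39, covers counting error only. All day-7 TAC libraries lay below all sham libraries, whereas after day-1 TAC replicate 1 lay within the sham range and the other two lay below it. Nrg1 was 3.45-fold lower after day-7 TAC than in sham (-1.79, SE 0.44, limma adjusted p = 0.0125), a call kept when any 1 library was left out. The size depended on the scale, since with a pseudocount of 1 on the linear values the change was -0.98 (adjusted p = 0.0123). With day-1 TAC the difference of -0.74 (SE 0.44, 95% interval -1.70 to 0.22, adjusted p = 0.211) did not pass the test; without day-1 TAC replicate 1 it was -1.16 with an adjusted p of 0.0609. Between day-1 and day-7 TAC the difference was 1.04 (SE 0.44, adjusted p = 0.123). Without day-7 TAC replicate 1 that difference was 1.48 and passed (adjusted p = 0.0492), and without day-1 TAC replicate 1 it was 0.62 (adjusted p = 0.343).

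Fewer cells of a type and less RNA per cell cannot be told apart in these bulk samples. Marker counts here and below stand beside 20.5% of all tested genes called lower after day-1 TAC and 15.1% after day-7 TAC. Of the 5 endocardial markers, all were tested, and 2 fell and none rose with TAC at either age: Npr3, a natriuretic peptide clearance receptor, by 1.08 after day-7 TAC and 0.82 after day-1 TAC, and Cytl1 by 1.16 and 1.18. Summed over the 5 markers, the linear level was 160 to 181 in sham, 117 to 140 after day-7 TAC and 122 to 146 after day-1 TAC. The 9 endothelial markers summed to 1544 to 1634, 1463 to 1532 and 1388 to 1510, with 1 called higher and 3 lower after day-7 TAC and 4 called lower after day-1 TAC, and no marker of either list was at 0. The part of the endocardial markers in the Nrg1 difference was not tested.

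Nrg4 encodes neuregulin-4, an ErbB4 ligand known as a secreted factor of brown fat. Nrg4 stood at log2 values of 1.03, 0.91 and 1.32 in sham, 1.00, 1.02 and 0.77 after day-7 TAC and 0.82, 0.94 and 1.32 after day-1 TAC, all from 36 to 48 reads. The groups overlapped fully. The 95% interval of the difference from sham was -0.63 to 0.32 after day-7 TAC and -0.54 to 0.41 after day-1 TAC.

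Erbb4 encodes the receptor that pairs with ErbB2 in cardiomyocytes and gave the largest change among the receptor genes. Across libraries the log2 values of Erbb4 were 6.19, 6.06 and 5.99 in sham, 5.53, 5.48 and 5.45 after day-7 TAC and 4.43, 5.18 and 4.83 after day-1 TAC. No value of any group overlapped that of another: sham was highest, day-7 TAC between and day-1 TAC lowest, with replicate 1 at the bottom. Erbb4 was 2.40-fold lower after day-1 TAC than in sham (-1.27, SE 0.15, limma adjusted p = 0.000346), and kept that call when any 1 library was left out. With day-7 TAC it fell by 0.59 (SE 0.15, adjusted p = 0.0155), a call lost without sham replicate 1 (-0.54, adjusted p = 0.0535). Tested directly, Erbb4 was lower after day-1 than after day-7 TAC (-0.67, SE 0.15, adjusted p = 0.0152), 1.60-fold, in all 3 day-1 TAC libraries. That call was kept without any 1 library, at -0.48 without day-1 TAC replicate 1 (adjusted p = 0.0218).

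Of 8 cardiomyocyte markers 2 fell and none rose with TAC at either age, with a median of -0.30 in both comparisons and no called difference between the TAC groups (0 of 8 by limma, and a median of -0.04). The lowest single marker was Pln, the inhibitor of the sarcoplasmic calcium pump, at -0.83 after day-1 TAC, and Tnnt2, a troponin, at -0.50 after day-7 TAC. Means of Myh6, Tnnt2, Tnni3, Ryr2 and Pln were lower in both TAC groups than in sham. Those of Actn2 and Mybpc3 were slightly higher in both, and that of Ttn only after day-7 TAC. The linear sum of all 8 was 102804 to 112368 in sham, 84568 to 89603 after day-7 TAC and 66906 to 90222 after day-1 TAC. Replicate 1 held the lowest sum after day-1 TAC. Myh6 had the highest level of the list, a log2 mean of 15.78 in sham, and so weighed most in the sum. The part of these markers in the Erbb4 difference was not tested, and no marker of the list was at 0.

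Erbb2, the co-receptor without a ligand of its own, varied little. Erbb2 had log2 values of 4.35, 4.55 and 4.58 in sham, 4.39, 4.36 and 4.29 after day-7 TAC and 4.17, 4.32 and 4.16 after day-1 TAC. The day-1 TAC libraries lay just below the sham libraries, and day-7 TAC overlapped both. With day-1 TAC Erbb2 fell by 0.27 (SE 0.09, limma adjusted p = 0.0428), and the call was kept in 2 of 9 fits that left out a library, those without sham replicate 1 and without day-1 TAC replicate 2. Without sham replicate 2 the adjusted p was 0.131, and under trimmed-mean scaling the change was -0.25 with an adjusted p of 0.0598. With day-7 TAC the difference was -0.15 (95% interval -0.35 to 0.06, adjusted p = 0.267).

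Erbb3 encodes the neuregulin receptor with a weak kinase, which in the heart is known from the cushion mesenchyme and from Schwann cells. Erbb3 had log2 values of 4.22, 3.93 and 4.07 in sham, 3.67, 3.44 and 3.59 after day-7 TAC and 3.68, 3.61 and 3.91 after day-1 TAC. All 6 TAC libraries lay below the sham libraries, by a narrow margin for day-1 TAC replicate 3, and the TAC groups overlapped. Erbb3 fell by 0.51 after day-7 TAC (SE 0.12, limma adjusted p = 0.0107), kept when any 1 library was left out. With day-1 TAC it fell by 0.34 (SE 0.12, adjusted p = 0.0481), a call that 8 of 9 fits with a library left out did not keep; it held only without day-1 TAC replicate 3 (-0.43, adjusted p = 0.0305), and without sham replicate 1 the adjusted p was 0.146. It was also lost under trimmed-mean scaling (-0.31, adjusted p = 0.0726). Between day-1 and day-7 TAC the difference was 0.17 (95% interval -0.10 to 0.43, adjusted p = 0.363).

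Markers of Schwann cells and glia were lower in the same libraries. Of 10 listed markers 9 were tested, and 6 fell after day-7 TAC and 3 after day-1 TAC, with medians of -0.78 and -0.48 and no member called higher against sham. Sox10, the transcription factor of the glial lineage, fell by 1.07 and 1.05, and L1cam, an adhesion molecule, by 0.78 and 0.67, after day-7 and day-1 TAC. The summed linear level of the 10 markers was 45.9 to 47.6 in sham, 25.4 to 30.004 after day-7 TAC and 31.2 to 34.4 after day-1 TAC. The part of these markers in the Erbb3 difference was not tested.

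**Figure D2:**
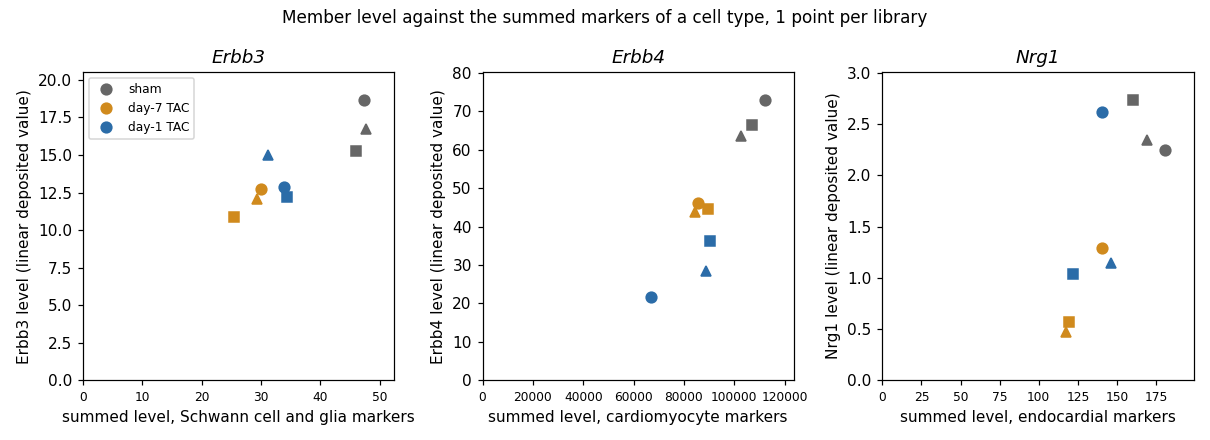
Linear level of Erbb3, Erbb4 and Nrg1 (vertical axes) against the summed linear level of Schwann cell and glia, cardiomyocyte and endocardial markers (horizontal axes), 1 point per library with groups by colour. Sham libraries hold the highest marker sums in all 3 panels, 45.9 to 47.6, 102804 to 112368 and 160 to 181.

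Egfr encodes the receptor of EGF-like ligands, Hbegf and Btc among them. Egfr had log2 values of 4.36, 4.48 and 4.27 in sham, 4.32, 4.49 and 4.61 after day-7 TAC and 4.0, 4.13 and 4.21 after day-1 TAC. The day-1 TAC libraries lay below all others, while day-7 TAC and sham overlapped. Egfr was lower after day-1 than after day-7 TAC (-0.36, SE 0.11, limma adjusted p = 0.0419), a call kept in 3 of 9 fits that left out a library, those without sham replicate 1, sham replicate 3 or day-7 TAC replicate 1. Without day-7 TAC replicate 3 it was -0.29 with an adjusted p of 0.137, and under trimmed-mean scaling -0.34 with an adjusted p of 0.0535. Against sham the difference after day-1 TAC was -0.25 (SE 0.11, adjusted p = 0.0860) and after day-7 TAC 0.11 (SE 0.11, adjusted p = 0.476).

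Counting groups that did not overlap, 6 of 8 members did so for day-1 TAC and sham, where 48% of all tested genes did. For day-7 TAC and sham 5 of 8 did so, where 46.7% of all tested genes did, and between day-1 and day-7 TAC 2 of 8, where 38.9% did. Across all groups the limma F test called 6 of 8 members, all except Nrg4 (adjusted p = 0.810) and Erbb2 (adjusted p = 0.0810), beside 44.4% of all tested genes. Hbegf, Btc, Erbb3 and Erbb4 were called in the same direction in both comparisons with sham, 4 of 8, beside 17.2% of all tested genes. The Erbb3 call after day-1 TAC in this count was kept in 1 of 9 fits that left out a library.

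**Figure D3:**
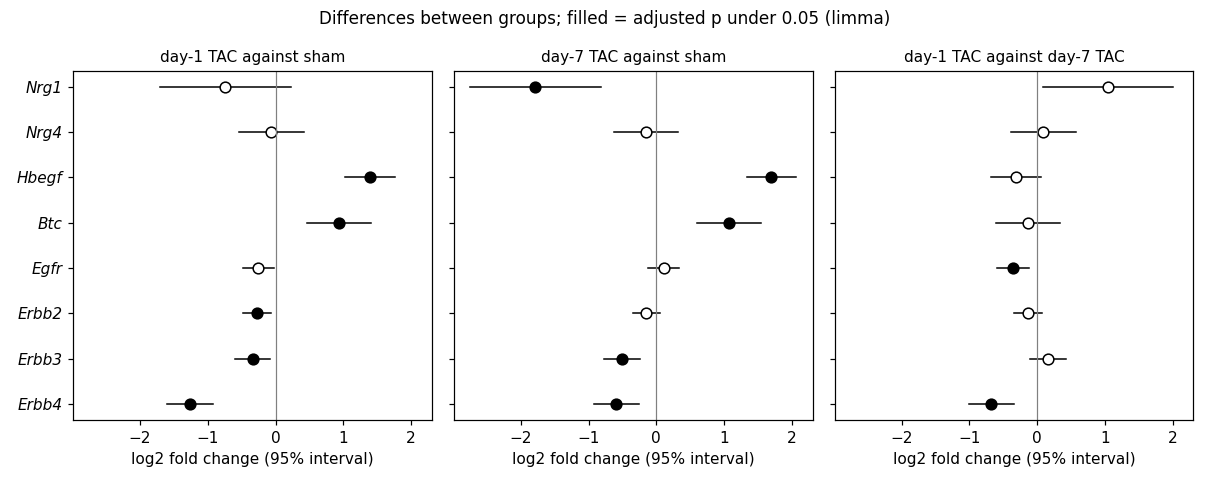
Log2 fold change with its 95% interval (horizontal axis) of each gene in the 3 comparisons; filled points had a limma adjusted p under 0.05. Hbegf and Btc are the genes to the right of 0 in both comparisons with sham, and Erbb4 is the lowest receptor gene in day-1 TAC against sham at -1.27.

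Per kilobase of exon, the order of the genes changed with TAC. In sham the mean linear level per kb was 5.47 for Erbb4, 4.33 for Erbb2, 4.24 for Hbegf, 2.81 for Erbb3, 1.83 for Egfr, 0.407 for Btc, 0.352 for Nrg4 and 0.236 for Nrg1, and the ranges of the neighbours Erbb2 and Hbegf, and of Btc and Nrg4, overlapped. With day-7 TAC Hbegf came first at 13.8 per kb ± 2.86 (SD, n = 3), above Erbb2 at 3.91 and Erbb4 at 3.63, and Erbb3 (1.98) and Egfr (1.97) overlapped. With day-1 TAC the linear level per kb was 11.05 for Hbegf, 3.58 for Erbb2, 2.32 for Erbb4, 2.22 for Erbb3 and 1.53 for Egfr, with Erbb4 and Erbb3 overlapping. Erbb4 stood above Erbb2 in the sham libraries and below it in the TAC libraries on the per-kb scale. Exon length here is that of all annotated exons together, which need not be the length of the transcripts present.

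As a share of the 4 receptor mRNAs summed per kb, Erbb4 made up 37.9% ± 2.01 (SD, n = 3) in sham, 31.6% ± 0.645 after day-7 TAC and 23.8% ± 4.19 after day-1 TAC. The share of Erbb2 was 30.02%, 34.0% and 37.1% in the same order. Egfr made up 12.6%, 17.2% and 15.9%, and Erbb3 19.4%, 17.2% and 23.1%. The summed receptor level per kb was 14.4, 11.5 and 9.66, with no overlap between groups. Of the 4 ligands, Hbegf made up 80.7% ± 2.74 in sham, 91.5% ± 1.70 after day-7 TAC and 89.6% ± 1.75 after day-1 TAC, and Nrg1 4.58%, 0.486% and 1.21%. The summed ligand level per kb was 5.23, 15.1 and 12.3. These shares describe mRNA, leave out other ligand genes such as Egf (151 to 209 reads per sham library), and were not tested.

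**Figure D4:**
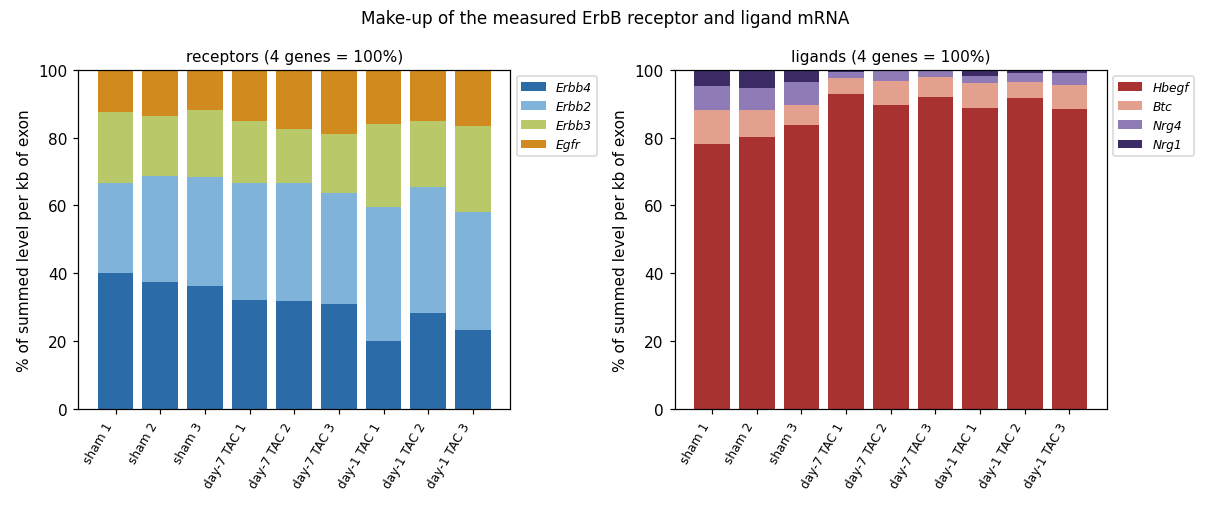
Share of the summed level per kb of exon (vertical axis, percent) held by each of the 4 receptor genes and the 4 ligand genes in each of the 9 libraries. Erbb4 shrinks from 37.9% of the receptor mRNA in sham to 23.8% after day-1 TAC, and Hbegf holds 80.7% or more of the summed mRNA of these 4 ligand genes in each group mean.

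Hbegf is also known as a product of leukocytes, and the summed level of neutrophil markers was higher in the TAC groups. Of 5 neutrophil markers, Ngp, Ltf, Retnlg and S100a8 were below 0 on the log2 scale in all sham libraries and passed the filter through the TAC libraries alone, so their calls are not counted here. The summed linear level of the 5 was 1.51 to 3.29 in sham, 27.2 to 64.3 after day-7 TAC and 5.38 to 27.995 after day-1 TAC, with Retnlg at 2 to 65 reads per library. The highest sum of each TAC group lay in the library with its lowest Hbegf value. These were day-7 TAC replicate 2 (64.3, Hbegf 5.71) and day-1 TAC replicate 3 (27.995, Hbegf 5.59). The lowest sum lay in the library with the highest Hbegf value, replicate 1 in each TAC group. With 3 libraries per group this order is a description only. The 8 macrophage markers summed to 154 to 209 in sham, 118 to 149 after day-7 TAC and 171 to 243 after day-1 TAC, with 3 fallen and none risen after day-7 TAC and 2 risen after day-1 TAC. No marker of either list was at 0, and their part in the Hbegf difference was not tested.

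Across the 9 libraries Hbegf and Btc ran together (Pearson r = 0.876), as did Erbb2 and Erbb4 (0.826), while Erbb3 and Hbegf ran opposite (-0.824). Such values carry the differences between groups and are a description only. By the same measure, among 10632 or 10633 named genes with a mean of at least 2, the genes most like Erbb4 were Tox (r = 0.995), Dpf3 (0.993) and Lmbrd1 (0.986). Those most like Hbegf were Rwdd4a (0.979), E2f3 (0.977) and Tspan9 (0.977), and those most like Btc were Slc6a8 (0.983), Optn (0.980) and Slain2 (0.977). For Erbb3 they were Saraf (0.967), Man1a (0.960) and Zfp628 (0.951), for Erbb2 Prpf4b (0.970), Ikbkg (0.956) and Zfp426 (0.955), and for Egfr Grasp (0.967), Jag2 (0.960) and Pus7 (0.952). Nrg1 was most like Pgghg (0.958), D17Wsu92e (0.924) and Fer (0.920), and among the genes most like Nrg4 were Zfp799 (0.826) and St6gal1 (0.816).

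Among the other EGF-family ligands 3 of 7 were tested, and Areg, Epgn, Nrg2 and Nrg3 were at or below 0 on the log2 scale in too many libraries, with at most 24 reads each. Ereg, epiregulin, had 4 to 7 reads in sham, 17 to 25 after day-7 TAC and 10 to 62 after day-1 TAC. It passed the filter through the TAC libraries alone, so its p-values are not given here. Its log2 differences from sham were 2.39 after day-1 TAC and 1.96 after day-7 TAC. With a pseudocount of 1 on the linear values these differences were 0.96 and 0.64. Tgfa, an EGFR ligand, rose by 1.02 after day-7 TAC (limma adjusted p = 0.0126), a call lost without day-7 TAC replicate 2 (adjusted p = 0.0545). Egf fell by 0.61 after day-7 TAC (limma adjusted p = 0.0451), a call kept in 3 of 9 fits that left out a library.

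Of 13 genes for ligand shedding and processing, 5 rose and none fell after day-7 TAC, and 4 rose and 1 fell after day-1 TAC. These counts stand beside 28.9% and 34.8% of all tested genes called, and the median log2 fold changes were 0.33 and 0.21. Adam12, a metalloprotease known to cleave Hbegf, rose by 1.23 after day-7 TAC (SE 0.25, limma adjusted p = 0.00552) and by 1.096 after day-1 TAC, and Adam15 by 0.35 and 0.33. Timp3, an inhibitor of ADAM17, was lower after day-1 than after day-7 TAC (-1.04, SE 0.18, adjusted p = 0.00513) and fell by 0.60 against sham after day-1 TAC (adjusted p = 0.0250, kept in 7 of 9 fits without a library). Adam17, the main sheddase of EGFR ligands, named after its values were seen, rose by 0.31 after day-1 TAC (adjusted p = 0.0138). It was also higher than after day-7 TAC, by 0.34 (adjusted p = 0.0202, kept in 6 of 9 fits).

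Genes of receptor turnover and restraint gave 1 risen and 3 fallen of 14 after day-1 TAC, and 2 risen and 2 fallen after day-7 TAC, with medians of -0.11 and -0.10. Of all tested genes 34.8% and 28.9% were called, so these counts were near the background. Lrig1, a membrane protein that lowers ErbB receptor levels, fell by 0.67 after day-7 TAC (SE 0.09, limma adjusted p = 0.000553) and by 0.46 after day-1 TAC. Nedd4, a ubiquitin ligase, fell by 0.40 and 0.46. Socs5, a suppressor of EGFR signalling, rose by 0.58 after day-1 TAC (adjusted p = 0.00220) and by 0.34 after day-7 TAC (adjusted p = 0.0311, kept in 4 of 9 fits without a library). No gene of this list was called between day-1 and day-7 TAC by limma; the range was -0.32 to 0.24.

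Downstream, 18 adaptor and ERK-cascade genes gave 2 risen and 5 fallen after day-1 TAC, and 1 risen and 1 fallen after day-7 TAC, with medians of -0.01 and -0.02. The shares of all tested genes called were 34.8% and 28.9%. Gab1, the docking protein that couples ErbB receptors to SHP2 and PI3K, fell by 0.61 after day-7 TAC (SE 0.09, limma adjusted p = 0.00109) and by 0.45 after day-1 TAC.

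In the PI3K and AKT arm 1 of 14 genes rose and 6 fell after day-1 TAC, and 3 rose and 5 fell after day-7 TAC, with medians of -0.18 and -0.17, beside 34.8% and 28.9% of all tested genes called. Foxo3, a transcription factor that AKT keeps out of the nucleus, fell by 1.32 after day-1 TAC (SE 0.14, limma adjusted p = 0.000176) and by 1.29 after day-7 TAC. The kinase genes Akt1 and Pdpk1 differed between the TAC groups, where day-1 TAC was below day-7 TAC (-0.68 and -0.58, adjusted p = 0.00233 and 0.00128). Against sham, Akt1 rose by 0.55 after day-7 TAC, and Pdpk1 fell by 0.36 after day-1 TAC and rose by 0.22 after day-7 TAC (adjusted p = 0.0431, kept in 1 of 9 fits without a library).

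ERK-induced feedback genes, whose transcripts commonly follow ERK activity, gave 3 risen and 1 fallen of 11 after day-1 TAC, and none risen and 3 fallen after day-7 TAC, with medians of -0.07 and -0.13. The counts were near the 34.8% and 28.9% of all tested genes called. Spry4, an inhibitor of receptor tyrosine kinase signalling, rose by 1.05 after day-1 TAC (SE 0.18, limma adjusted p = 0.00184) and was higher than after day-7 TAC by 0.85 (adjusted p = 0.0116). Etv4, an ETS transcription factor, rose by 2.02 after day-1 TAC (adjusted p = 0.00186) and differed from day-7 TAC by 1.15 (adjusted p = 0.0466, kept in 1 of 9 fits without a library). Dusp6, the ERK phosphatase, named after its values were seen, was the other gene called higher after day-1 TAC, by 0.52 against sham (adjusted p = 0.0171, kept in 7 of 9 fits) and by 0.65 against day-7 TAC (adjusted p = 0.0131, kept in 8 of 9). Phlda1 fell by 1.13 after day-7 TAC (adjusted p = 0.00285), and so did Etv5, named after its values were seen, by 1.25 (adjusted p = 0.00610). Of the called pathway genes, 21 of 28 calls in day-1 TAC against sham, 13 of 25 in day-7 TAC against sham and 4 of 10 between the TAC groups held in every fit that left out a library. The counts against sham include Ereg, which passed the filter through the TAC libraries alone.

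**Figure D5:**
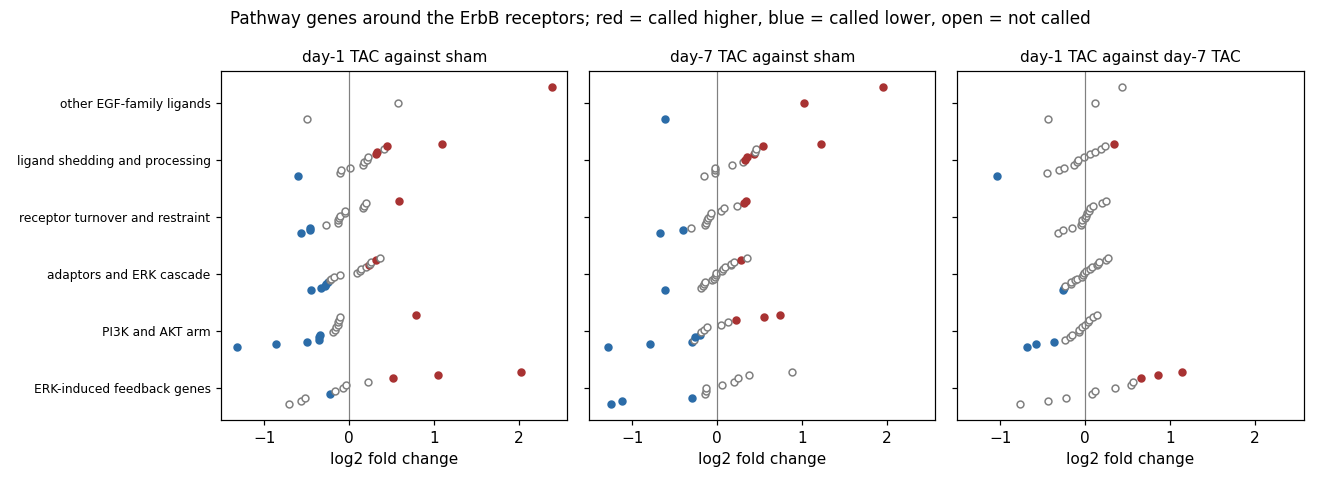
Log2 fold change (horizontal axis) of the tested genes of 6 lists around the ErbB receptors in the 3 comparisons, 1 point per gene; filled red was called higher, filled blue lower and open was not called. The lists hold genes on both sides of 0, with Etv4 at 2.02 and Foxo3 at -1.32 in day-1 TAC against sham.

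On GRCm38 (mm10), all 8 genes are protein-coding. Erbb4 spans chr1:68032186-69108059 and Nrg1 chr8:31814551-32884029, both on the minus strand and spanning 1075.87 and 1069.48 kb. Erbb2 lies at chr11:98412470-98437716 and Egfr at chr11:16752203-16918158 on the plus strand. On the minus strand lie Erbb3 at chr10:128567523-128589652, Nrg4 at chr9:55220222-55326844, Btc at chr5:91357261-91402994 and Hbegf at chr18:36504927-36515805. Of the Nrg4 exons, 1389 bases lie within the span of the opposite-strand gene Fbxo22 and 177 bases within that of the opposite-strand pseudogene Gm15625. For Nrg1, 482 exon bases lie within the opposite-strand noncoding gene Gm26578, and for Erbb2, 9 lie within Mien1 on the opposite strand. With the strand setting of the counting not given in the sources used here, reads in those stretches cannot be assigned to 1 gene with certainty.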

How the data were processed

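The labels' protocols describe total RNA of the left ventricle, mRNA purification, ScriptSeq v2 libraries and single-end sequencing. Per the submitters' processing notes, the authors used Trim Galore, STAR, edgeR and mm10; their versions, annotation and strand setting were not given in the sources used here. As values, the authors deposited log2 values, named as TMM-scaled per the file headers. On the linear scale 100% of a library's values were multiples of 1 step to within 0.001 reads, and dividing by it gave the reads printed. If the authors had added 1 read before the log, each printed number of reads would be 1 too high. Of 16710 entries, 12 entries of 3 repeated symbols were left out, which kept 16698 genes. In the header 2 sham columns share a name, so sham numbers 2 and 3 are names in column order and stand for no pairing.

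Genes above 0 in at least 3 libraries (13712) were fitted with limma 3.58.1 in R 4.3.3, in a single model of all 9 libraries with an intensity trend, two-sided, with Benjamini-Hochberg adjustment over all genes tested. A count model was not used, since the deposited unit is log2; limma's voom on the recovered reads was an alternative, and called 4811, 3987 and 2248 genes against 4776, 3962 and 2287. Whether each sample is a separate animal is not stated in the labels, and the p-values reflect sample-to-sample spread, which may be technical. Exon lengths and coordinates are from GENCODE mouse release M21 on GRCm38, and linear levels are deposited values taken out of the log. Promoter windows from RefSeq were taken for 5 of 8 genes, and windows on chromosome 18, where Hbegf lies, were left out. The members and gene lists were chosen with earlier results of these data known. Named were all members, the 3 called genes of each pathway list with the smallest p, and the 3 genes most like each member; some genes so selected are not reported here. The steps were tested on simulated data. Alternatives changed the filter, the pseudocount, the scaling, the intensity trend, the libraries fitted, the minimum fold and the libraries left out. Of the marker lists not given beside a result, fibroblast markers summed to 2147 to 2803 in sham, 2439 to 2835 with day-7 TAC and 2937 to 3797 with day-1 TAC. In the same order, smooth muscle and pericyte markers summed to 1543 to 1609, 1659 to 1797 and 1345 to 1547. Atrial markers summed to 194 to 291, 126 to 352 and 276 to 453, and red blood cell markers to 276 to 1009, 352 to 414 and 631 to 854. Skeletal muscle markers summed to 1910 to 2108, 2020 to 2472 and 3375 to 5016, nearly all from Ckm and Acta1. Acta1 had log2 means of 5.49, 8.24 and 10.61, while Myh4, Mylpf and Myh3 were below the filter. Epicardial markers summed to 25.5 to 43.3, 49.95 to 80.3 and 55.8 to 76.8. Of these Aldh1a2 differed most among the tested markers (log2 means 4.22, 5.35 and 5.52), and Msln and Upk1b had no entry.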

Additional observations from a re-analysis of the deposited data

Results flagged for a closer look

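The TAC groups differed in 2 of the 8 genes when tested directly against each other, beside 16.7% of all tested genes called (10.3% lower), so the count itself was near the background. Erbb4 was lower after day-1 than after day-7 TAC (-0.67 on the log2 scale, SE 0.15, limma adjusted p = 0.0152), and all 3 day-1 TAC libraries lay below all 3 day-7 TAC libraries. Egfr was lower too (-0.36, SE 0.11, adjusted p = 0.0419), with no overlap, and this call was lost in 6 of 9 fits that left out a library. Cardiomyocyte markers differed between the TAC groups by a median of -0.04, with a range of -0.39 to 0.12. Their linear sums were 66906, 90222 and 88680 in day-1 TAC replicates 1, 2 and 3, and 84568 to 89603 after day-7 TAC. The part of these markers in either difference was not tested.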

How the results depend on the processing

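Over all alternatives and left-out libraries, 440 values of single members were recomputed: 392 kept direction and side of the threshold, 43 lost a call, 1 gained a call and 4 changed sign. The count of members called in day-1 TAC against sham was 5 and became 3 with no filter, under trimmed-mean scaling, under quantile scaling, with only the groups compared and with a minimum fold of 1.2; leaving out a library gave 3 to 4. In day-7 TAC against sham it was 5 and became 3 with a minimum fold of 1.2. Between day-1 and day-7 TAC it was 2 and became 1 under trimmed-mean scaling, quantile scaling, no intensity trend or only the groups compared, and 0 (limma; 1 at an unadjusted p under 0.05) with a minimum fold of 1.2; leaving out a library gave 1 to 3. Uncalled differences changed sign when a library was left out: Nrg4 ranged from -0.21 to 0.054 in day-1 TAC against sham and from -0.053 to 0.20 between day-1 and day-7 TAC, and Btc from -0.32 to 0.070 between day-1 and day-7 TAC. The cause was not tested. Scaling moved no library as a whole by more than 0.036 (trimmed mean) or 0.039 (quantile) on the log2 scale. Single genes moved by more under quantile scaling, where Nrg1 in day-7 TAC against sham went from -1.79 to -1.90. Nrg1, Nrg4 and Btc rest on at most 96 reads per library, which limits their precision.

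With the replicate number as a block in the 6 TAC libraries, limma called 0 members between day-1 and day-7 TAC (4 at an unadjusted p under 0.05), and 1167 genes overall against 2287; Erbb4 kept -0.67 with an adjusted p of 0.0538. Deviations from the group mean correlated at -0.22, -0.11 and -0.04 between same-numbered libraries, and at -0.17 to 0.23 between differently numbered ones. With so few libraries these values cannot show whether a number marks a shared litter, day or batch, and the labels do not say. No paired analysis was possible because 2 sham columns carry no number of their own, for the comparisons with sham.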
